A study of Mus musculus with 47 samples.

Results

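RE-RE mice are built so that the clock gene Bmal1 works in brain and skeletal muscle fibres, and the comparison described here set their muscle against wild-type muscle at the start of the night. The members were chosen by label, with no use of a measured value: the 4 RE-RE sham libraries at ZT12 and the 4 wild-type (WT) sham libraries at ZT12, together 8 of the 47 libraries of the series. ZT12 is 12 hours after lights on. RE-RE mice carried Bmal1(stopFL/stopFL), in which a stop cassette blocks Bmal1 (gene symbol Arntl), and 2 Cre recombinase transgenes, Syt10-Cre(-/tg) and, beside it, Hsa-Cre(-/tg), which remove the cassette where the Syt10 promoter (brain) or the Hsa promoter (skeletal muscle fibres) is active, so that cells of a muscle in which neither promoter is active keep the block. Mice of both groups were female, on the C57BL/6 strain and fed ad libitum, and had recovered for at least 2 weeks after sham surgery. RE-RE mice 5, 6, 7 and 8 were 12, 11, 13 and 14 weeks old, and WT mice 5, 6, 7 and 8 were 10, 10, 10 and 12 weeks old, so that genotype and age partly moved together. RNA came from the whole tibialis anterior, a shin muscle made mostly of fast fibres. The 2 groups were also set beside the same genotypes at ZT0 (RE-RE sham mice of 9 to 14 weeks and WT sham mice of 9 to 11 weeks) and after removal of both adrenal glands (ADX) at ZT12 (RE-RE ADX mice of 12 to 18 weeks and WT ADX mice of 13 to 17 weeks), with 4 libraries in each group.

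The molecular clock is a feedback loop. BMAL1 binds DNA together with CLOCK or its relative NPAS2 and switches on the Per, Cry and Nr1d genes, whose products shut down BMAL1 activity or the Arntl gene, and the factors DBP, TEF and HLF pass the rhythm on to other genes. In muscle this loop is known for timing glucose use, and the brain clock sets when a mouse is active, eats and releases adrenal hormones. The comparison addresses what differs in muscle at the start of the night when those are the clocks a mouse has.

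The deposited values are FPKM, a level per gene length and library depth, on a log2 scale. Depth, read from the steps between the lowest values, was 18.5 to 27.4 M reads in the 8 libraries. Genes listed at exactly 0 numbered 127 to 170 in RE-RE and 197 to 269 in WT libraries, and a 0 is not read as absence. Within each group 3 libraries share exact low values with each other (up to 64 such values in the RE-RE group and 28 in the WT group), while RE-RE mouse 6 and WT mouse 8 share 0 with their group. The libraries of a group may therefore not be fully independent, p-values may be too small, and counts are also given without these 2 mice. The skeletal muscle markers Ckm and Acta1 stood at 11827 to 24009 FPKM in the 8 libraries, so the labelled tissue's defining markers were present.

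Of 12000 tested genes, 2318 passed an adjusted p of 0.05 (19.3%), of which 1106 (9.22%) were higher and 1212 (10.1%) lower in RE-RE than in WT muscle. The counts of called list members at ZT12 given below are to be read beside these shares, unless another model or set of libraries is named. Adjusted p-values are from limma with Benjamini-Hochberg adjustment, with 1 estimate of the spread from all 47 libraries, and folds are on the log2(FPKM + 0.01) scale. Most changes were small, with a median size of 0.36 (log2) among called genes. At least a 2-fold change was seen for 364 genes, 272 of them higher and 92 lower, and among genes with no value at 0 for 189, 133 higher and 56 lower. The 2 groups did not overlap for 2700 tested genes (22.5%), with RE-RE above WT for 1285 (10.7%) and below for 1415 (11.8%). Without RE-RE mouse 6 and WT mouse 8, 1318 genes were called (11.0%), 1287 of them among the 2318, and 0 changed direction. Of the 1318, 654 were higher (5.45% of tested genes) and 664 lower (5.53%). With only the 2 groups in the model, 1823 of the 12000 genes were called, 915 higher and 908 lower. List counts from these 2 fits are to be read beside these numbers.

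**Figure D1:**
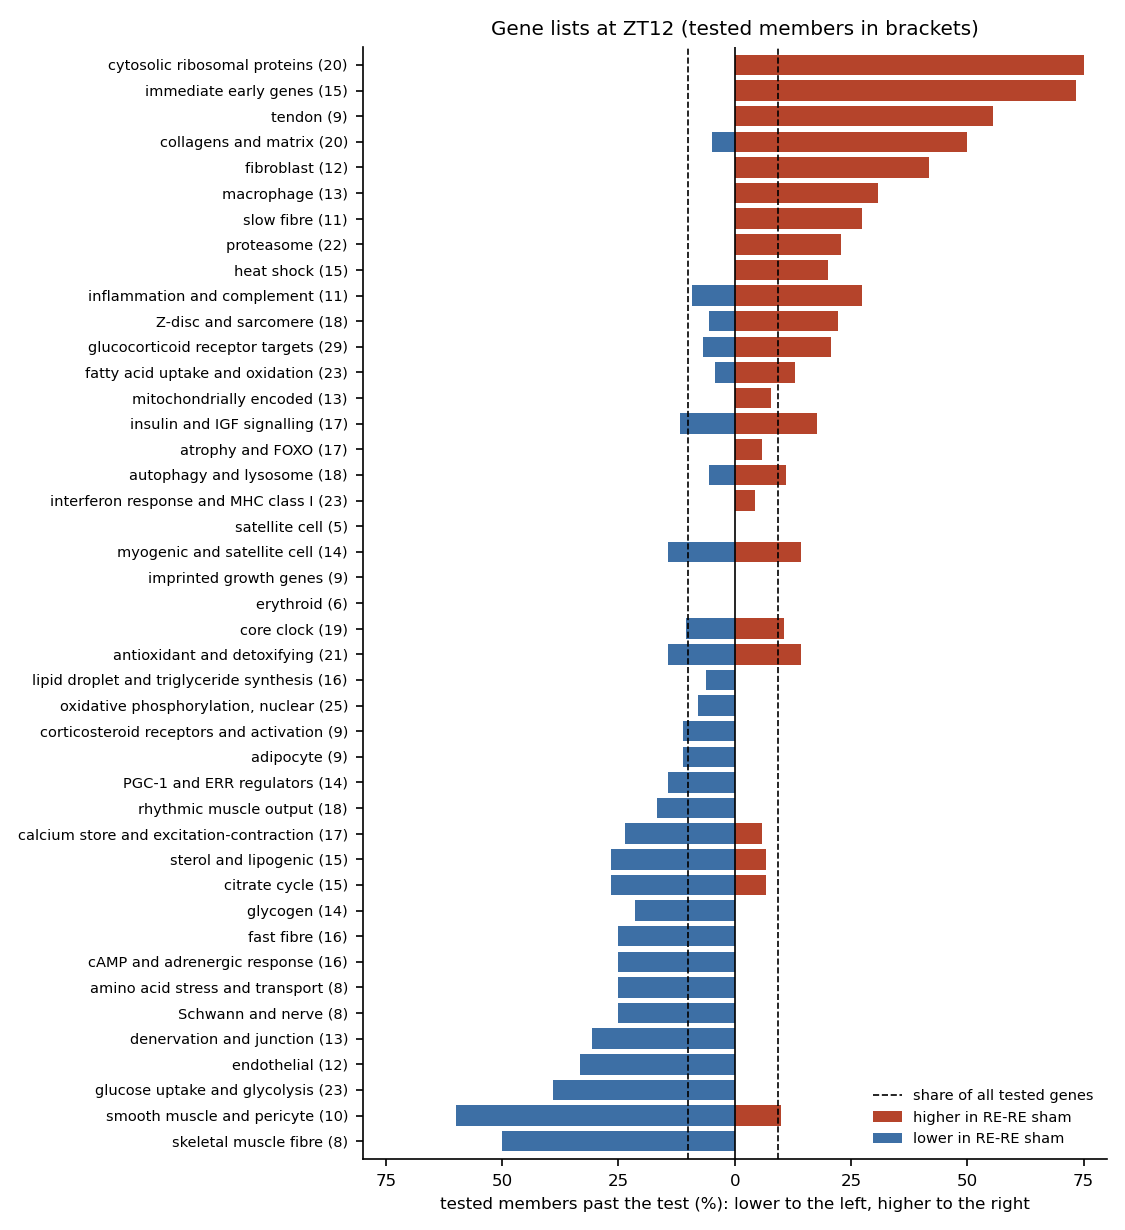
Share of the tested members of 43 gene lists that passed the test at ZT12, higher in RE-RE sham muscle to the right and lower to the left. Dashed lines are the shares over all tested genes (9.22% higher, 10.1% lower); ribosomal proteins and immediate early genes reach furthest right, smooth muscle and pericyte markers furthest left.

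The clock genes themselves differed little at ZT12. Of 19 members of the core clock list, 2 were higher (Npas2, Clock) and 2 lower (Hlf, Arntl) in RE-RE muscle, and the list's median log2 change was -0.03, against -0.01 over all tested genes. Npas2, the relative of CLOCK, had 1.44, 1.48, 1.41 and 1.35 FPKM in RE-RE muscles and was listed at 0 in all 4 WT muscles (adjusted p = 1.87e-20). It also exceeded WT at ZT0, with 1.61 to 2.07 FPKM in RE-RE and 0.506 to 0.674 FPKM in WT muscles, and the difference between both times passed the test (adjusted p = 8.73e-12).

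Clock had 1.72, 1.76, 1.72 and 1.74 FPKM in RE-RE muscles, against 1.55, 1.31, 1.49 and 1.29 FPKM in WT muscles (log2 fold change 0.30 ± 0.09, SE, adjusted p = 0.0198). The groups did not overlap, but the call was lost without WT mouse 6 (adjusted p = 0.0612), without WT mouse 8 (0.073) and with age as a covariate (0.0518). Hlf, an output factor of the loop, had 3.01, 2.6, 3.33 and 2.35 FPKM in RE-RE muscles, against 3.84, 4.1, 3.93 and 3.47 FPKM in WT muscles (-0.45 ± 0.14, adjusted p = 0.0186). All RE-RE values lay below all WT values, and the call was lost without WT mouse 6 (0.0513), RE-RE mouse 6 (0.0562) or RE-RE mouse 8 (0.0843).

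Arntl, the targeted gene, was near its daily low in both groups at ZT12. It had 0.327, 0, 0 and 0 FPKM in RE-RE muscles, against 0.673, 0.123, 0.758 and 0 FPKM in WT muscles, ranges that overlap. Its call (adjusted p = 0.0133) was lost on log2(FPKM + 1) (0.197), with only the 2 groups in the model (0.299) and without any 1 of 5 libraries (WT mice 5 and 7, RE-RE mice 6, 7 and 8, adjusted p 0.0589 to 0.0897). At ZT0 it stood at 13.4 to 15.2 FPKM in RE-RE and 14.2 to 18.8 FPKM in WT muscles and did not pass the test (adjusted p = 0.88).

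Per2, a repressor of the loop, had 3.79, 5.1, 4.93 and 3.75 FPKM in RE-RE muscles, against 6.87, 6.3, 6.72 and 6.45 FPKM in WT muscles. The groups did not overlap, but the change (-0.60 ± 0.27) missed the threshold (adjusted p = 0.113) and passed it with only the 2 groups in the model (0.0111). At ZT0 Per2 was higher in RE-RE muscle (1.99, adjusted p = 1.36e-06), and the difference between both times passed the test (adjusted p = 7.75e-05). Per1, a repressor of the same family, had 11.2, 19.5, 19.5 and 16 FPKM in RE-RE muscles, against 22.9, 14.4, 19.8 and 18 FPKM in WT muscles, with overlap (adjusted p = 0.939). Per3 stood at 7.16 to 7.45 FPKM in RE-RE and 7.57 to 8.85 FPKM in WT muscles. Its groups did not overlap either, and the change (-0.20 ± 0.14) missed the threshold (adjusted p = 0.356) and passed it with only the 2 groups in the model (0.043).

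The cryptochromes, which repress with the PER proteins, overlapped between the groups: Cry1 spanned 6.23 to 8.03 FPKM in RE-RE and 5.71 to 7.91 FPKM in WT muscles, and Cry2 spanned 9.3 to 9.77 FPKM in RE-RE and 8.22 to 10.7 FPKM in WT muscles. So did nuclear receptors that set Arntl levels. Nr1d1, a repressor of Arntl, had 13.8 to 26.1 FPKM in RE-RE and 14.7 to 25.9 FPKM in WT muscles (0.03 ± 0.17), Nr1d2 had 32.7 to 42.3 FPKM in RE-RE and 36.9 to 44.8 FPKM in WT muscles, and the activator Rora had a log2 change of -0.02 ± 0.08. The repressors Bhlhe40 and Bhlhe41 (-0.18 ± 0.14 and -0.03 ± 0.16), Nfil3 (0.02 ± 0.33) and Ciart (0.56 ± 0.85) did not pass the test either. Dbp had 65.8, 65.4, 74.2 and 53.3 FPKM in RE-RE muscles, against 53.2, 66.5, 54.1 and 40.2 FPKM in WT muscles, with overlap (adjusted p = 0.886). Tef had 46.3 to 55.4 FPKM in RE-RE and 51.4 to 54.7 FPKM in WT muscles (adjusted p = 0.448).

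**Figure D2:**
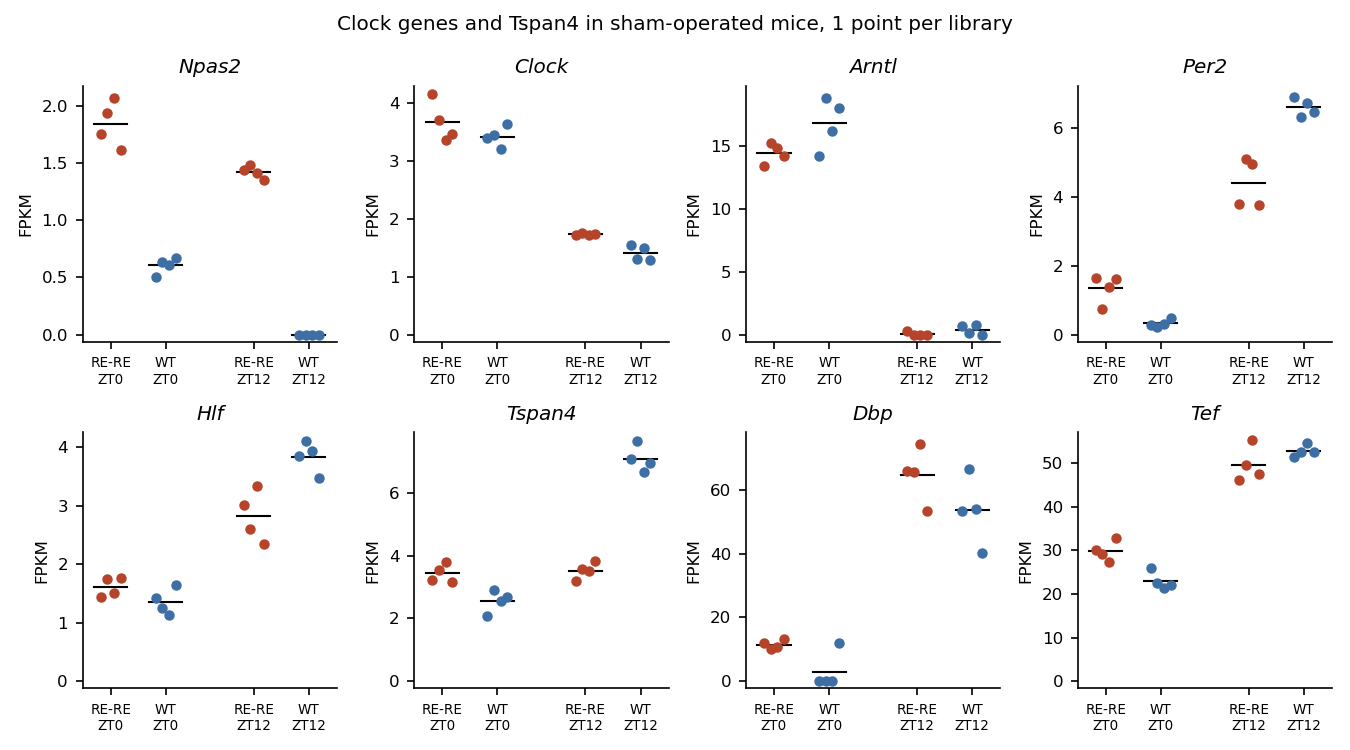
Levels of 7 clock genes and of Tspan4 in FPKM, 1 point per library with the group mean as a line, for RE-RE and WT sham muscle at ZT0 and ZT12. At ZT12 Npas2, Clock, Hlf, Per2 and Tspan4 separate the genotypes, while Dbp and Tef overlap.

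A second list held 18 genes known from muscle rhythms outside the loop, of which 0 were higher and 3 lower. The called share lay below the 19.3% of all tested genes called in either direction, so the list as a whole did not stand out. Tspan4, a tetraspanin membrane protein, had 3.18, 3.57, 3.52 and 3.84 FPKM in RE-RE muscles, against 7.09, 7.65, 6.67 and 6.97 FPKM in WT muscles (-1.01 ± 0.10, adjusted p = 5.37e-10). The groups lay far apart, and at ZT0 the direction was the other one (0.43, adjusted p = 0.00102), a difference past the test (adjusted p = 2.64e-09). Por, the electron donor of cytochrome P450 enzymes, stood at 4.37 to 5.37 FPKM in RE-RE and 5.87 to 7.62 FPKM in WT muscles (-0.45 ± 0.08, adjusted p = 0.000174). Myod1, a myogenic transcription factor, had 7.97, 6.72, 11.3 and 9.17 FPKM in RE-RE muscles, against 10.9, 17.5, 14.2 and 14.8 FPKM in WT muscles (-0.71 ± 0.20, adjusted p = 0.0101), with 1 RE-RE value above the lowest WT value; its call was lost without RE-RE mouse 6 (0.0542). The titin cap gene Tcap (0.28 ± 0.10, adjusted p = 0.0525) and the fast myosin Myh1 (-0.09 ± 0.19) did not pass.

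Immediate early genes, which are transcribed within minutes of a stimulus such as contraction or stress, were higher in RE-RE muscle. Of 15 tested members 11 rose and 0 fell, and 13 lay above WT without overlap. Their summed level was 141 to 212 FPKM in RE-RE and 29.8 to 58.4 FPKM in WT muscles. The promoters of 3 of the called genes with large differences are shown so that their sequence can be read beside these values, as the 250 bases before the transcription start (RefSeq, GRCm38.p6, 5′ to 3′ on the gene's strand). Capitals mark TGACG, the core of the site bound by cAMP-responsive factors, or in Btg2 the whole palindrome TGACGTCA. AP-1 type sites with other letters were not searched for, so a window without capitals may hold one. The windows are chr12:85473640-85473889 (plus strand) for Fos, chr1:134079156-134079405 (minus strand) for Btg2 and chr4:95052223-95052472 (minus strand) for Jun.
Fos: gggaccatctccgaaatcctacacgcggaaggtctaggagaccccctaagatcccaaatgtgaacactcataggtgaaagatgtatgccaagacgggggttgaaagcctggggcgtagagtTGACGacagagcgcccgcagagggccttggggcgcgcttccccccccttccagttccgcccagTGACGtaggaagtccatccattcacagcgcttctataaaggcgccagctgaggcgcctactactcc
Btg2: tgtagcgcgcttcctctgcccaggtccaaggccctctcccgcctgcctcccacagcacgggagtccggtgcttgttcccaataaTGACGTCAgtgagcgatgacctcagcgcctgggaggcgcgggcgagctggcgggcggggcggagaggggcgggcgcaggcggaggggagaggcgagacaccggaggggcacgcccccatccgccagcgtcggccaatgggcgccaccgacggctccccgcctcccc
Jun: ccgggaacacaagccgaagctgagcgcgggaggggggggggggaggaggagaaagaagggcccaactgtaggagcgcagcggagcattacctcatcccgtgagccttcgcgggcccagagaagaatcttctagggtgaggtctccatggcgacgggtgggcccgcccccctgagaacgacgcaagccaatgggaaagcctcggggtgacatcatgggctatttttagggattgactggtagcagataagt

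The Fos window held TGACG at 129 and at 66 bases before the start and the Btg2 window held TGACGTCA at 166 bases before it, while the Jun window held neither on either strand. Of 32851 such windows of 27025 genes, 17.8% held TGACG and 1.5% held TGACGTCA, which contains TGACG on both strands. Of 14 immediate early genes looked up, 12 had an entry. Egr1, a member that passed the test, was not looked up, so these counts do not cover it. Among the 8 of these that passed the test 5 held TGACG, 1 held TGACGTCA and 0 held a CArG box, the site of serum response factor, which 1.5% of all windows held. Among the 4 that did not pass, 1 (Dusp1) held TGACG and TGACGTCA, and 1 (Zfp36) held a CArG box. A match of letters is no evidence of binding. The search took exact letters within these windows only, so a CArG box further upstream or with other letters would be missed.

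Fos, a subunit of the AP-1 transcription factor, had 7.61, 10.4, 7.33 and 10.5 FPKM in RE-RE muscles and was listed at 0 in all 4 WT muscles (adjusted p = 1.56e-05). Btg2, an anti-proliferative gene, had 16.6, 23.2, 10.2 and 15.2 FPKM in RE-RE muscles, against 0, 0, 0.0652 and 2.12 FPKM in WT muscles (adjusted p = 9.9e-06). For Btg2 the difference between ZT12 and ZT0 passed the test as well (adjusted p = 0.0394). Egr1, a zinc finger factor, had 4.94, 8.07, 3.67 and 7.64 FPKM in RE-RE muscles, against 0, 0, 0 and 1.08 FPKM in WT muscles (adjusted p = 0.000656). In each of these 3 genes every RE-RE muscle exceeded every WT muscle, and the call held with any 1 of the 8 libraries left out.

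The 6 tested members with no value at 0 rest less on the lowest values, and 4 of them rose. Jun, the partner of FOS, had 29.8, 32.6, 31.6 and 37.4 FPKM in RE-RE muscles, against 7.37, 6.95, 7.48 and 10.8 FPKM in WT muscles (2.03 ± 0.37, adjusted p = 0.000155). Ier5 had 6.51, 8.79, 8.04 and 5.84 FPKM in RE-RE muscles, against 1.75, 1.67, 1.75 and 2.25 FPKM in WT muscles (1.96 ± 0.17, adjusted p = 5.82e-11). Ier2 had 5.98, 9.18, 5.7 and 8.34 FPKM in RE-RE muscles, against 2.25, 2.52, 2.69 and 4.19 FPKM in WT muscles (1.33 ± 0.25, adjusted p = 0.000219). None of these 3 overlapped between the groups, nor did Jund, with 12.9 to 19.4 FPKM in RE-RE and 8.48 to 12.5 FPKM in WT muscles (0.64 ± 0.16, adjusted p = 0.00424; 0.107 without RE-RE mouse 6 and WT mouse 8).

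The members Fosb, Egr3 and Atf3 stood low: Fosb at 0.216 to 0.315 and Egr3 at 0.314 to 0.668 FPKM in RE-RE muscles, both listed at 0 in all WT muscles, and Atf3 at 1.22 to 5.46 FPKM in RE-RE and 0 to 0.572 FPKM in WT muscles. On log2(FPKM + 1) Fosb (adjusted p = 0.335) and Egr3 (0.154) no longer passed, and Atf3 did not with only the 2 groups in the model (0.0627). Junb, at 4.11 to 7.69 FPKM in RE-RE and 0 to 3.47 FPKM in WT muscles (adjusted p = 0.013), lost its call without WT mouse 5 (0.116). The phosphatase gene Dusp1 had 28.4, 63.4, 45.4 and 44.8 FPKM in RE-RE muscles, against 4.11, 0, 6.65 and 11.9 FPKM in WT muscles, and missed the threshold (adjusted p = 0.0644). Zfp36, an mRNA decay factor, missed it too, with 8.96 to 20.4 FPKM in RE-RE and 0 to 7.54 FPKM in WT muscles (adjusted p = 0.12). Both had no overlap. At ZT0, 2 of the 15 were higher and 1 lower in RE-RE sham muscle. Of all tested genes, 12.5% were higher and 11.6% lower in that contrast. With only the 2 groups in the model 9 rose, and without RE-RE mouse 6 and WT mouse 8 10 rose.

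**Figure D3:**
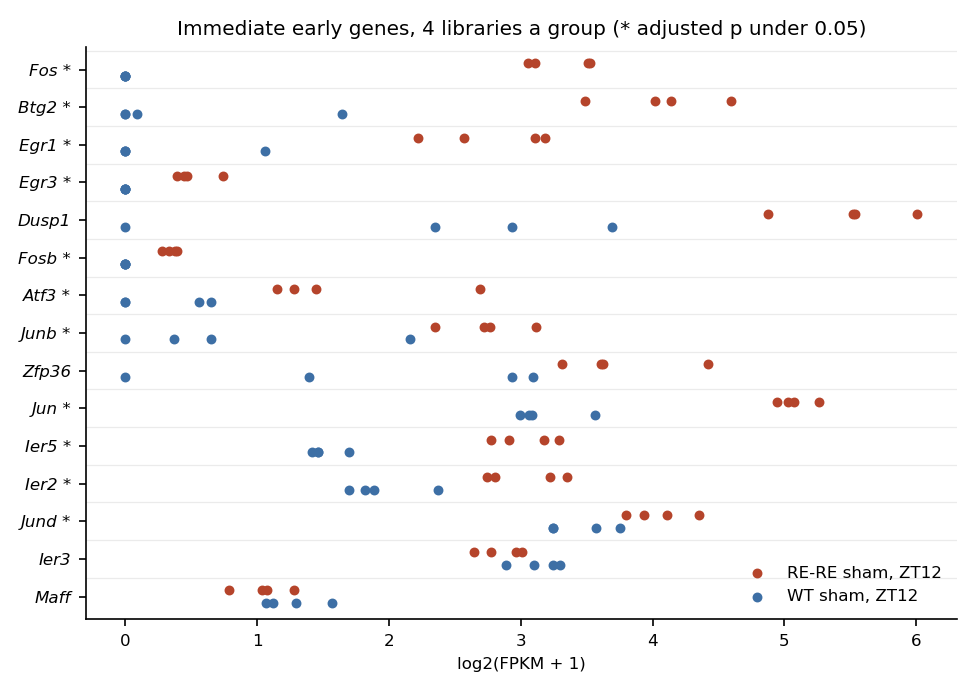
Levels of the 15 tested immediate early genes at ZT12 as log2(FPKM + 1), with 1 point per library and RE-RE sham drawn above WT sham for each gene. RE-RE points lie to the right of all WT points for 13 genes, and Fos, Fosb and Egr3 sit at 0 in every WT library.

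Genes of the extracellular matrix made up the next group. Of 20 tested collagen and matrix genes 10 rose and 1 fell, 19 lay above WT without overlap, and the list's median log2 change was 1.39. The list's summed level was 643 to 688 FPKM in RE-RE and 232 to 330 FPKM in WT muscles, so that the lowest RE-RE muscle held more than the highest WT muscle. Fbn1, the fibrillin of elastic fibres, had 3.61, 4.17, 4.37 and 4.69 FPKM in RE-RE muscles, against 0.831, 0.524, 0.804 and 0.534 FPKM in WT muscles (2.65 ± 0.20, adjusted p = 1.26e-12). The difference between ZT12 and ZT0 passed for Fbn1 (adjusted p = 0.00129), with a smaller rise at ZT0 (1.01).

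Fibrillar and microfibrillar collagens shared this order. Col3a1, of fibrillar collagen III, had 61.5, 67.5, 64.6 and 63.4 FPKM in RE-RE muscles, against 16.7, 12.3, 21 and 24.8 FPKM in WT muscles (1.83 ± 0.36, adjusted p = 0.000374). The 3 chains of collagen VI, which surrounds muscle fibres, rose together: Col6a1 by 1.23 ± 0.25, Col6a2 by 1.71 ± 0.24 and Col6a3 by 1.42 ± 0.22 (adjusted p 2.72e-06 to 0.000532). Col1a1, of fibrillar collagen I, had 96.8, 88.4, 104 and 94.1 FPKM in RE-RE muscles, against 6.82, 0, 11.9 and 25.6 FPKM in WT muscles, and Col1a2 had 45.9, 42.1, 50.8 and 48.3 FPKM in RE-RE muscles, against 4.83, 0, 7.32 and 14.2 FPKM in WT muscles. Their groups lay far apart, while the standard errors from all 47 libraries were 2.01 and 1.75 (log2); both passed narrowly (adjusted p = 0.0497 and 0.041) and lost the call when WT mouse 6, listed at 0, was left out (0.305 and 0.285) or any 1 RE-RE mouse (0.0672 to 0.0861), and Col1a1 also without WT mouse 5 (0.0546).

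A further 9 members did not overlap between the groups and did not pass the test. Sparc, a collagen-binding protein, had 137, 136, 148 and 144 FPKM in RE-RE muscles, against 67.2, 63.7, 78.2 and 80.7 FPKM in WT muscles, with an adjusted p of 0.595 in the model of all libraries and 0.000245 with only the 2 groups in it. Col4a1, of basement membrane collagen IV, had 60.6, 69.4, 67.7 and 58.4 FPKM in RE-RE muscles, against 35.8, 34.6, 36.2 and 31.2 FPKM in WT muscles (adjusted p = 0.688 and, with only the 2 groups, 0.000219). The crosslinking enzyme gene Lox had 5.07 to 6.29 FPKM in RE-RE and 1.3 to 2.25 FPKM in WT muscles (adjusted p = 0.117 and 0.000519). With only the 2 groups in the model, 17 of the 20 rose and 1 fell, where 915 of the 12000 tested genes rose and 908 fell. Without RE-RE mouse 6 and WT mouse 8, 8 rose and 1 fell.

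Proteases of the matrix and their inhibitors moved as well. Mmp14, a membrane-bound collagenase, had 7.89, 6.75, 8.53 and 8.45 FPKM in RE-RE muscles, against 0.901, 0.9, 1.09 and 2.04 FPKM in WT muscles (2.75 ± 0.64, adjusted p = 0.00208). Mmp2, the gelatinase that MMP14 activates, had 19.3, 19.6, 23.5 and 25.2 FPKM in RE-RE muscles, against 6.8, 7.26, 8.38 and 10.9 FPKM in WT muscles (1.41 ± 0.34, adjusted p = 0.00255). Of the inhibitors, Timp2 rose (0.72 ± 0.16, adjusted p = 0.00156) and Timp3 fell, to 15.6, 16.4, 15.7 and 14.9 FPKM in RE-RE muscles, against 34.9, 26.3, 30.6 and 31.7 FPKM in WT muscles (-0.98 ± 0.10, adjusted p = 7.78e-09). All 4 genes were without overlap.

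**Figure D4:**
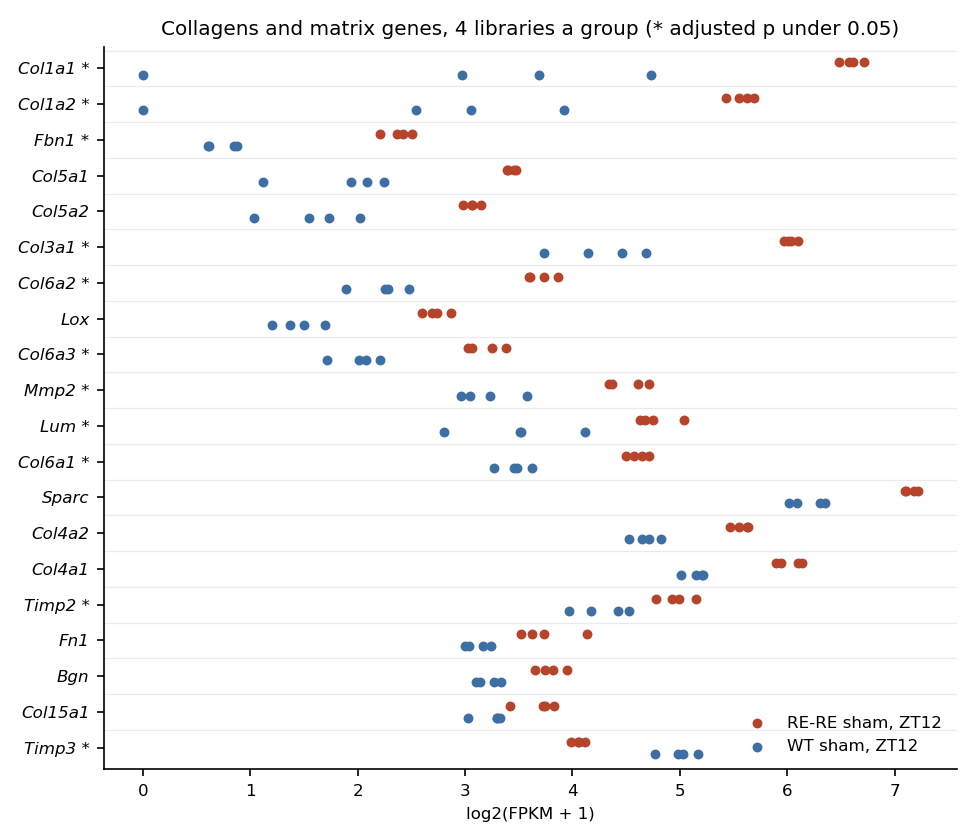
Levels of the 20 tested collagen and matrix genes at ZT12 as log2(FPKM + 1), 1 point per library, RE-RE sham drawn above WT sham for each gene. RE-RE points lie to the right for 19 genes and to the left for Timp3, and WT mouse 6 is listed at 0 for Col1a1 and Col1a2.

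Markers of the cells that make or surround the matrix were uneven. Of 12 fibroblast markers 5 rose (Pdgfra, Lum and the 3 collagen genes Col1a1, Col1a2 and Col3a1), and the 7 that did not pass overlapped between the groups. The summed level of all 12 was 447 to 527 FPKM in RE-RE and 247 to 337 FPKM in WT muscles. That sum includes Lum and the 3 collagen genes, which were already counted in the matrix list, so it is not separate from the matrix values. Lum lost its call without WT mouse 6 (adjusted p = 0.085) or RE-RE mouse 5 (0.0529). Pdgfra, the receptor that defines muscle fibroblasts, had 1.19, 1.51, 1.57 and 1.39 FPKM in RE-RE muscles, against 0.967, 0.532, 0.85 and 0.982 FPKM in WT muscles (0.79 ± 0.17, adjusted p = 0.000812). Dcn, a small proteoglycan of the same cells, had 65.6, 80.8, 79.3 and 105 FPKM in RE-RE muscles, against 84.1, 67.5, 75.6 and 81.8 FPKM in WT muscles, with overlap (0.08 ± 0.15), and Gsn changed by 0.04 ± 0.25. In bulk muscle, more cells of a type and more RNA per cell cannot be told apart.

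Of 9 tendon markers 5 rose and 0 fell, with a summed level of 60.9 to 118 FPKM in RE-RE and 8 to 34.6 FPKM in WT muscles. Scx, the transcription factor of tendon cells, had 4, 4.07, 4.79 and 4.45 FPKM in RE-RE muscles, against 1.93, 2.5, 1.43 and 1.08 FPKM in WT muscles (1.38 ± 0.24, adjusted p = 6.77e-05). It was the called member out of 4 with no value at 0. Comp and Chad, matrix proteins of tendon and cartilage, stood at 0.464 to 3.17 FPKM (Comp) and 0.523 to 2.9 FPKM (Chad) in RE-RE muscles and were listed at 0 in all WT muscles. Col12a1 had 3.93 to 6.92 FPKM in RE-RE muscles, against 0, 0, 0 and 1.26 FPKM in WT muscles (adjusted p = 0.00553). Thbs4, with 25.6 to 53.9 FPKM in RE-RE and 0 to 15.3 FPKM in WT muscles, and Tnmd, with 5.17 to 11.3 FPKM in RE-RE and 0.338 to 2.22 FPKM in WT muscles, missed the threshold (adjusted p = 0.0849 and 0.0567). Angptl7, a secreted protein, lay the other way, with 0.164, 0.707, 0.621 and 1.06 FPKM in RE-RE muscles, against 3.47, 1.25, 2.34 and 2.38 FPKM in WT muscles. Its groups did not overlap, and the change of -2.05 ± 0.85 missed the threshold (adjusted p = 0.0849) and passed it with only the 2 groups in the model (0.0409). Kera, a matrix proteoglycan, overlapped (0.58 ± 1.05). How much tendon each sample held was not recorded, and its part in the matrix values was not tested.

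Of 13 macrophage markers 4 rose and 0 fell, with a summed level of 26.8 to 62.5 FPKM in RE-RE and 26.8 to 30.1 FPKM in WT muscles. Csf1r, the receptor that macrophages need to survive, had 1.53, 1.73, 2.13 and 2.5 FPKM in RE-RE muscles, against 0.841, 0.664, 0.848 and 1.06 FPKM in WT muscles (1.19 ± 0.29, adjusted p = 0.00326). Cd68, a lysosomal protein of these cells, had 1.54, 1.77, 2.04 and 2.18 FPKM in RE-RE muscles, against 0, 0.28, 0.675 and 0.486 FPKM in WT muscles (adjusted p = 0.000348). Neither overlapped, while the more abundant Lyz2 and C1qb did (adjusted p = 0.202 and 0.923). RE-RE mouse 8 had the highest value of the RE-RE group for Cd68, Csf1r, Adgre1 and Lyz2, and without it Adgre1 lost its call (0.0679). Tyrobp, a signalling adaptor of myeloid cells, had 1.32 to 3.13 FPKM in RE-RE and 0.126 to 0.775 FPKM in WT muscles (2.20 ± 0.42, adjusted p = 0.000253). Of 8 listed neutrophil markers only Mmp9 had deposited values, 5.33 to 8.54 FPKM in RE-RE muscles, against 0, 0, 0 and 0.64 FPKM in WT muscles (adjusted p = 0.000188). The others, S100a8, S100a9 and Ly6g among them, could not be tested, so Mmp9 alone does not show a change in neutrophils.

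Of 11 tested genes of inflammation and complement 3 rose and 1 fell. The chemokine gene Cxcl14 was the one that fell, with 5.59 to 11.4 FPKM in RE-RE and 12.8 to 16.5 FPKM in WT muscles (-0.83 ± 0.19, adjusted p = 0.0015). Of 23 interferon response and MHC class I genes, 1 rose (Ifi35, 0.41 ± 0.11, adjusted p = 0.0101) and 0 fell. With only the 2 groups in the model, 5 of them fell and 1 rose, where 908 of the 12000 tested genes fell and 915 rose. Apart from any model, 8 lay below WT without overlap and 1 above, against 11.8% and 10.7% of all tested genes.

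Cytosolic ribosomal proteins rose by small, even steps. Of 20 members 15 rose and 0 fell, their median log2 change was 0.24, and their summed level was 1872 to 1956 FPKM in RE-RE and 1626 to 1716 FPKM in WT muscles. Rpl8, of the large subunit, had 271, 252, 269 and 248 FPKM in RE-RE muscles, against 216, 214, 210 and 212 FPKM in WT muscles (0.29 ± 0.04, adjusted p = 4.76e-06). Rpl5, which carries the 5S RNA into the large subunit, had 25.1, 24.4, 22.6 and 24.7 FPKM in RE-RE muscles, against 19.2, 17.5, 18.6 and 19.2 FPKM in WT muscles (0.38 ± 0.04, adjusted p = 8e-08). Rps3, of the small subunit, had 47.9, 46.3, 45 and 47.5 FPKM in RE-RE muscles, against 40.2, 38, 39.9 and 41.1 FPKM in WT muscles (0.23 ± 0.04, adjusted p = 4.28e-05). None of these overlapped between the groups. Rplp0, of the ribosomal stalk, had 180 to 201 FPKM in RE-RE and 176 to 195 FPKM in WT muscles (0.01 ± 0.05).

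At ZT0, 18 of the 20 were higher in RE-RE than in WT sham muscle, against 12.5% of all tested genes. After adrenalectomy at ZT12, where 19.7% of tested genes were higher, 14 of the 20 were. Ribosomal protein genes have many near-identical pseudogene copies, and how the authors' counting treated shared reads is not recorded, so their absolute levels are uncertain. Of 22 proteasome subunits, 5 rose and 0 fell, among them Psmb3 (20.3 to 23.2 FPKM in RE-RE and 16.6 to 18.8 FPKM in WT muscles, 0.31 ± 0.05, adjusted p = 3.53e-05), Psmb4 (0.18 ± 0.04) and Psma2 (0.16 ± 0.04). The abundant subunits Psmb7 (0.08 ± 0.05) and Psma6 (0.03 ± 0.04) did not pass.

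Enzymes of glucose use were lower. Of 23 genes of glucose uptake and glycolysis 9 fell and 0 rose, with a median log2 change of -0.21, and their summed level was 14686 to 15631 FPKM in RE-RE and 17236 to 18806 FPKM in WT muscles. Pgk1, a glycolytic kinase that yields ATP, had 109, 121, 116 and 119 FPKM in RE-RE muscles, against 155, 136, 151 and 169 FPKM in WT muscles (-0.39 ± 0.07, adjusted p = 0.000203). Gpi1, which opens the pathway after hexokinase, had 183, 182, 169 and 174 FPKM in RE-RE muscles, against 209, 229, 212 and 228 FPKM in WT muscles (-0.31 ± 0.06, adjusted p = 0.000171). Pgam2, the muscle form of phosphoglycerate mutase, had 1391, 1541, 1542 and 1347 FPKM in RE-RE muscles, against 1779, 1817, 1856 and 2044 FPKM in WT muscles (-0.37 ± 0.07, adjusted p = 0.000355). Every WT muscle exceeded every RE-RE muscle for these 3 genes.

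Further called members were the glycolytic enzymes Tpi1 (-0.29 ± 0.07), Pkm (-0.33 ± 0.08), Eno3 (-0.30 ± 0.08) and Pfkm (-0.25 ± 0.08; lost without WT mouse 5, RE-RE mouse 6 or RE-RE mouse 7, adjusted p 0.0508 to 0.0557) and, at the entry to mitochondria, the pyruvate dehydrogenase subunit Pdha1 (-0.28 ± 0.06). Aldoa, the most abundant member, had 5415, 5830, 5664 and 5595 FPKM in RE-RE muscles, against 6014, 6226, 5986 and 6495 FPKM in WT muscles. Its groups did not overlap, and the change of -0.14 ± 0.07 missed the threshold (adjusted p = 0.195). Hexokinase Hk2 (-0.06 ± 0.10) overlapped. Gapdh, with 4.02 to 5.5 FPKM in RE-RE and 4.98 to 6.75 FPKM in WT muscles, stood far below Aldoa and is uncertain because of its many pseudogene copies.

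Without RE-RE mouse 6 and WT mouse 8, 7 of the 23 fell and 1 rose, and at ZT0 4 were lower and 2 higher. Of all tested genes, 11.6% were lower and 12.5% higher at ZT0. Of 14 glycogen genes 3 fell and 0 rose. Phkg1, the catalytic subunit of phosphorylase kinase, had 93.8, 96.1, 90.5 and 96.8 FPKM in RE-RE muscles, against 114, 115, 117 and 120 FPKM in WT muscles (-0.30 ± 0.06, adjusted p = 0.000718). Its target Pygm, glycogen phosphorylase, had 2185 to 2397 FPKM in RE-RE and 2653 to 2906 FPKM in WT muscles (-0.27 ± 0.09, adjusted p = 0.0239), and lost its call without WT mouse 8 (0.0739) or RE-RE mouse 8 (0.0645).

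**Figure D5:**
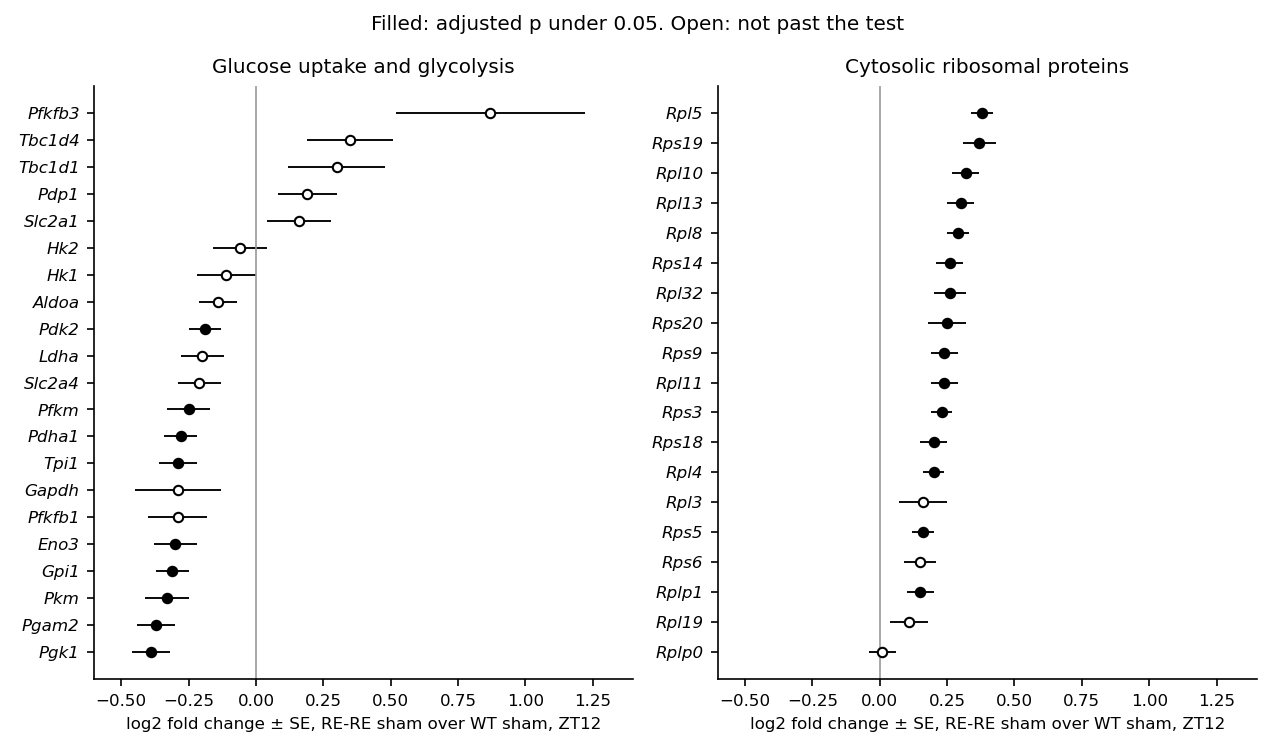
Log2 fold changes ± SE of RE-RE over WT sham muscle at ZT12 for genes of glucose uptake and glycolysis (left, members with an SE under 0.4) and 19 cytosolic ribosomal proteins (right), filled where the adjusted p is under 0.05. The 9 called glycolysis genes lie between -0.39 and -0.19, and the 15 called ribosomal protein genes between 0.15 and 0.38.

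Most fast fibre genes did not pass the test. Of 16 members 4 fell and 0 rose, with a summed level of 65540 to 70060 FPKM in RE-RE and 74685 to 82532 FPKM in WT muscles. Atp2a1, the calcium pump of fast fibres, had 11725, 11587, 11090 and 10793 FPKM in RE-RE muscles, against 13856, 14017, 13779 and 15353 FPKM in WT muscles (-0.33 ± 0.09, adjusted p = 0.00668). Pvalb, the calcium buffer parvalbumin, had 5232, 5808, 4909 and 5730 FPKM in RE-RE muscles, against 6686, 7639, 7111 and 7946 FPKM in WT muscles (-0.44 ± 0.12, adjusted p = 0.0067). Ckm, muscle creatine kinase, fell by 0.33 ± 0.09 on the log2 scale (adjusted p = 0.00755; 0.0672 with only the 2 groups in the model). The 3 genes did not overlap between the groups. Without RE-RE mouse 6 and WT mouse 8, 1 of the 16 fell, Pvalb. Myh4, the main myosin of this muscle, had 6947 to 8453 FPKM in RE-RE and 8859 to 10582 FPKM in WT muscles and missed the threshold (adjusted p = 0.0545).

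Among genes of the calcium store and of excitation-contraction coupling, 4 of 17 fell and 1 rose. The chloride channel gene Clcn1 had 41.2 to 47.7 FPKM in RE-RE and 52.7 to 55.3 FPKM in WT muscles (-0.26 ± 0.06, adjusted p = 0.00112), and the calcium channel subunit Cacnb1 fell by 0.23 ± 0.05 (log2). The ryanodine receptor Ryr1, through which calcium leaves the store, had 343 to 415 FPKM in RE-RE and 378 to 414 FPKM in WT muscles (-0.07 ± 0.07).

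Of 11 slow fibre genes 3 rose and 0 fell. Myh7, the slow myosin heavy chain, had 0.559, 0.617, 0.498 and 6.61 FPKM in RE-RE muscles, against 1.55, 1.42, 1.47 and 1.33 FPKM in WT muscles (adjusted p = 0.804). RE-RE mouse 8 lay above every WT muscle and the other RE-RE muscles below them, and the same mouse was the highest of its group for the slow troponins Tnnc1 (12 FPKM) and Tnni1 (2.78 FPKM), which did not pass. Tpm3, a slow tropomyosin, did not pass either (-0.18 ± 0.13). Casq2, the calsequestrin of slow and cardiac muscle, had 41.8, 29.9, 35.3 and 30.7 FPKM in RE-RE muscles, against 17.4, 18.3, 15.6 and 20.7 FPKM in WT muscles (0.93 ± 0.22, adjusted p = 0.00279). Myl3, a slow myosin light chain, had 63.1, 55.3, 64.5 and 71.1 FPKM in RE-RE muscles, against 20.3, 55.4, 30.2 and 25.6 FPKM in WT muscles (1.05 ± 0.26, adjusted p = 0.00358), with WT mouse 6 at the level of the lowest RE-RE muscle. Myl2, another slow light chain, had 3.91, 2.05, 13 and 7.25 FPKM in RE-RE muscles, against 0, 3.15, 0 and 0.481 FPKM in WT muscles, with overlap (adjusted p = 0.000151; 0.0784 with only the 2 groups in the model). Mb, myoglobin, overlapped (0.04 ± 0.17). Fabp3, the fatty acid carrier of oxidative fibres, had 293, 217, 316 and 265 FPKM in RE-RE muscles, against 118, 172, 97 and 148 FPKM in WT muscles (1.05 ± 0.21, adjusted p = 0.000373), without overlap.

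At the Z-disc, where sarcomeres are anchored, 4 of 18 genes rose and 1 fell. The ankyrin repeat genes Ankrd1, Ankrd23 and Ankrd2, known to respond to stretch, were among those that rose. Ankrd1 had 30.8, 43.1, 26.6 and 49.5 FPKM in RE-RE muscles and was listed at 0 in all WT muscles (adjusted p = 4.79e-08). Ankrd23 had 95, 102, 103 and 82.6 FPKM in RE-RE muscles, against 55.9, 52.6, 56.3 and 57.2 FPKM in WT muscles (0.78 ± 0.12, adjusted p = 8.32e-06). Ankrd2 had 123, 50.7, 97.5 and 65.3 FPKM in RE-RE muscles, against 40.4, 21.2, 11.3 and 0 FPKM in WT muscles (adjusted p = 0.00725; 0.0526 without RE-RE mouse 6 and WT mouse 8). All 3 lay above WT without overlap, while Ttn, the giant protein titin, fell by 0.21 ± 0.05 (log2, adjusted p = 0.00399).

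In the heat shock list 3 of 15 genes rose, all of them small heat shock proteins of muscle, and 0 fell. The called share was close to the 19.3% of all tested genes called in either direction. Cryab, a chaperone of the sarcomere, had 420, 416, 563 and 416 FPKM in RE-RE muscles, against 249, 259, 216 and 252 FPKM in WT muscles (0.89 ± 0.14, adjusted p = 1.43e-05). Hspb1 had 50.2, 54.6, 58.9 and 42 FPKM in RE-RE muscles, against 25.9, 36, 30 and 37.9 FPKM in WT muscles (0.67 ± 0.15, adjusted p = 0.00159). Neither overlapped, and the constitutive Hspa8 changed by 0.01 ± 0.08.

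Oxidative metabolism changed little at ZT12. Of 25 nuclear genes of oxidative phosphorylation 2 fell (Atp5b by 0.16 ± 0.05 and Sdha by 0.15 ± 0.05, log2), and in the model of only the 2 groups 0 did. Both lost the call with single libraries left out, without WT mouse 5 or RE-RE mouse 7 (Atp5b, adjusted p 0.0647 and 0.0691) and in 5 of 8 such fits (Sdha, 0.0686 to 0.136). Of 15 citrate cycle genes 4 fell and 1 rose (1 fell and 0 rose with only the 2 groups), among them Cs, citrate synthase, with 335 to 347 FPKM in RE-RE and 365 to 394 FPKM in WT muscles (-0.17 ± 0.05, adjusted p = 0.0149). Of 13 mitochondrially encoded genes, 1 passed: mt-Co3 had 21.1 to 59.9 FPKM in RE-RE muscles and was listed at 0 in all WT muscles. Levels on this genome ran from mt-Cytb, at 18642 to 21563 FPKM in RE-RE and 19533 to 22193 FPKM in WT muscles, down to values as low as those of mt-Co3 or lower, such as mt-Co2 at 14.6 to 31.7 FPKM in RE-RE and 10.3 to 30.8 FPKM in WT muscles. The mt-Co3 values are reported as uncertain.

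Vessel and nerve markers were lower. Of 10 smooth muscle and pericyte markers 6 fell and 1 rose, with a summed level of 203 to 236 FPKM in RE-RE and 246 to 291 FPKM in WT muscles. Acta2, smooth muscle actin, had 23.4, 19.6, 18.8 and 15.2 FPKM in RE-RE muscles, against 29.2, 27.1, 31.4 and 29.8 FPKM in WT muscles (-0.62 ± 0.14, adjusted p = 0.00101). Myh11, smooth muscle myosin, had 6.77, 6.18, 6.52 and 3.62 FPKM in RE-RE muscles, against 11, 7.12, 9.42 and 9.72 FPKM in WT muscles (-0.71 ± 0.14, adjusted p = 0.000477). Lmod1, an actin nucleator of smooth muscle outside the list, had 0.534 to 0.977 FPKM in RE-RE and 1.62 to 2.08 FPKM in WT muscles (-1.34 ± 0.12, adjusted p = 3.32e-10). None of the 3 overlapped, and RE-RE mouse 8 was lowest in each.

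Tagln (-0.53 ± 0.12) and the pericyte receptor Notch3 (-0.54 ± 0.11) fell as well, whereas Pdgfrb, another pericyte receptor, was the member that rose (0.32 ± 0.10, adjusted p = 0.026; lost without WT mouse 6 or 7 or RE-RE mouse 5 or 6, 0.0575 to 0.11). Of 12 endothelial markers 4 fell and 0 rose. Flt1, a receptor of vascular growth factor, had 8.41, 8.48, 7.28 and 7.86 FPKM in RE-RE muscles, against 12.5, 9.21, 11.7 and 11.6 FPKM in WT muscles (-0.48 ± 0.10, adjusted p = 0.000503), without overlap. The defining markers Pecam1 (-0.05 ± 0.09) and Cdh5 (-0.12 ± 0.11) overlapped. Without RE-RE mouse 6 and WT mouse 8, 1 endothelial marker and 5 smooth muscle and pericyte markers fell.

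Of 8 Schwann cell markers 2 fell and 0 rose. The myelin genes Mbp (-0.19 ± 0.19) and Pmp22 (-0.15 ± 0.11) overlapped between the groups. At the nerve-muscle junction 4 of 13 genes fell and 0 rose, all of them parts of the endplate: the enzyme gene Ache (6.78 to 9.58 FPKM in RE-RE and 11.6 to 13.9 FPKM in WT muscles, -0.62 ± 0.14, adjusted p = 0.0017), its anchor Colq (-0.49 ± 0.17) and the acetylcholine receptor subunits Chrnd (-0.77 ± 0.21) and Chrne (-0.55 ± 0.19). Colq lost the call without any 1 of WT mice 5 to 8 and RE-RE mice 7 and 8 (adjusted p 0.0552 to 0.122), and Chrne without WT mouse 6 or RE-RE mouse 5, 7 or 8 (0.0605 to 0.101). The list members Chrng and Runx1 were not tested.

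Targets of the glucocorticoid receptor, which senses the adrenal hormone that peaks near lights off in mice, gave a mixed picture at ZT12. Of 29 members 6 rose and 2 fell, and their median log2 change was 0.18. Cdkn1a, a cell cycle inhibitor, had 17.7, 25.9, 22 and 21.6 FPKM in RE-RE muscles, against 4.97, 4.4, 1.53 and 1.78 FPKM in WT muscles (2.96 ± 0.43, adjusted p = 3.85e-06), and the difference between ZT12 and ZT0 passed (adjusted p = 0.0399). Errfi1, an inhibitor of growth factor receptors, had 8.39, 14.7, 8.89 and 11.3 FPKM in RE-RE muscles, against 6.12, 3.13, 4.87 and 5.47 FPKM in WT muscles (1.15 ± 0.24, adjusted p = 0.000531). Irs2, an adaptor of the insulin receptor, fell to 2.34, 1.81, 1.3 and 1.33 FPKM in RE-RE muscles, against 4.61, 4.54, 3.78 and 2.52 FPKM in WT muscles (-1.19 ± 0.24, adjusted p = 0.000496). The groups did not overlap for these 3 genes.

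Fkbp5 and Glul, often used as readouts of the hormone, overlapped. Fkbp5, a chaperone of the receptor, had 1.95, 6.93, 6.89 and 2.89 FPKM in RE-RE muscles, against 6.81, 0, 0.475 and 2.9 FPKM in WT muscles, and its call (adjusted p = 0.0273) was lost without WT mouse 6 (0.283), WT mouse 7 (0.0579), RE-RE mouse 6 (0.0782) or RE-RE mouse 7 (0.0756). Glul, glutamine synthetase, had 65.7 to 119 FPKM in RE-RE and 89.8 to 129 FPKM in WT muscles (-0.16 ± 0.20). Mt2, a metal-binding protein, is uncertain because it is similar in sequence to Mt1 and the handling of shared reads is not given in the sources used here. It had 3.51, 19.9, 14.5 and 7.89 FPKM in RE-RE muscles, against 0, 0, 0 and 1.53 FPKM in WT muscles (adjusted p = 0.000502), and Angptl4, an inhibitor of lipoprotein lipase, had 3.17, 0.852, 1.69 and 2.93 FPKM in RE-RE muscles, against 0, 0, 0 and 0.499 FPKM in WT muscles (adjusted p = 0.000165). At ZT0, 10 of the 29 were higher and 1 lower in RE-RE sham muscle, against 12.5% and 11.6% of all tested genes. After adrenalectomy at ZT12, 23 were higher and 1 lower in RE-RE ADX than in WT ADX muscle, against 19.7% and 18.3%. Of 9 genes of corticosteroid receptors and activation, 1 fell: Hsd11b1, the enzyme that regenerates active hormone in tissue (0.338 to 0.688 FPKM in RE-RE and 0.637 to 1.08 FPKM in WT muscles, -0.66 ± 0.19, adjusted p = 0.0123), which lost its call without WT mouse 6 (0.0644) or RE-RE mouse 8 (0.0944).

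Genes of cAMP and adrenergic signalling were lower where they changed, 4 of 16 with 0 higher. Pde4d, a phosphodiesterase that degrades cAMP, had 5.35, 5.37, 4.96 and 4.91 FPKM in RE-RE muscles, against 9.81, 9.25, 7.94 and 6.95 FPKM in WT muscles (-0.71 ± 0.12, adjusted p = 2.8e-05). Its relative Pde4b had 5.45 to 7.04 FPKM in RE-RE and 7.86 to 10.6 FPKM in WT muscles (-0.56 ± 0.12, adjusted p = 0.000939), and Prkar1a, a regulatory subunit of protein kinase A, fell by 0.28 ± 0.07 (log2, adjusted p = 0.00555). All 3 lay below WT without overlap. The receptor-induced Nr4a1 had 51 to 83.7 FPKM in RE-RE and 45.3 to 88.3 FPKM in WT muscles (0.03 ± 0.31).

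In the insulin and IGF list 3 of 17 rose and 2 fell, against 9.22% and 10.1% of all tested genes. Igfbp3, a binding protein of IGF, had 7.48, 11.3, 10.4 and 9.05 FPKM in RE-RE muscles, against 4.2, 3.46, 2.91 and 3.8 FPKM in WT muscles (1.41 ± 0.15, adjusted p = 9.49e-09). Igf1, the growth factor, had 0.755, 0.586, 1.23 and 1.09 FPKM in RE-RE muscles, against 0.343, 0.351, 0.339 and 0.486 FPKM in WT muscles (1.20 ± 0.28, adjusted p = 0.0018). Its receptor Igf1r had 0.444 to 0.687 FPKM in RE-RE and 0.752 to 1.05 FPKM in WT muscles (-0.78 ± 0.20, adjusted p = 0.00574). The groups did not overlap for any of the 3.

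Of 21 antioxidant and detoxifying genes 3 rose and 3 fell, against 9.22% and 10.1% of all tested genes. Ephx1, an epoxide hydrolase, had 9.58, 7.67, 7.23 and 8.82 FPKM in RE-RE muscles, against 15.7, 13.8, 14.5 and 14 FPKM in WT muscles (-0.80 ± 0.10, adjusted p = 9.06e-08), and the difference between ZT12 and ZT0 passed the test (adjusted p = 0.00722). Outside the list, the glutathione transferase genes Gstt1 (1.15 to 2.07 FPKM in RE-RE and 3.33 to 3.99 FPKM in WT muscles, -1.26 ± 0.16) and Gstt2 (1.99 to 2.31 FPKM in RE-RE and 3.69 to 4.59 FPKM in WT muscles, adjusted p = 7.98e-06) and the flavin monooxygenase Fmo2 (2.03, 2.57, 3.05 and 2.98 FPKM in RE-RE, against 14.2, 11.5, 10.9 and 11.7 FPKM in WT muscles, -2.19 ± 0.15, adjusted p = 9.75e-14) also fell without overlap. Gpx3, a secreted glutathione peroxidase, had 124 to 156 FPKM in RE-RE muscles, against 31.5, 0, 33.4 and 35.2 FPKM in WT muscles (adjusted p = 0.00866), and lost its call without WT mouse 6 (0.066).

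Of atrophy and FOXO genes 1 of 17 rose, of autophagy and lysosome genes 2 of 18 rose and 1 fell, of fatty acid genes 3 of 23 rose and 1 fell and of lipid droplet genes 1 of 16 fell (Lpin1, -0.46 ± 0.11). Each of these lists had a smaller called share than the 19.3% of all tested genes. Of 15 sterol and lipogenic genes 1 rose and 4 fell, the falls a larger share than the 10.1% of all tested genes. Those that fell were the sterol synthesis genes Fdft1 (-0.28 ± 0.07, adjusted p = 0.00695) and Hmgcs1 (-0.14 ± 0.05, adjusted p = 0.0316), the fatty acid regulator Acacb (-0.30 ± 0.09, adjusted p = 0.0122) and the desaturase gene Scd1, which overlapped, with 8.32, 1.6, 0 and 0 FPKM in RE-RE muscles, against 2.52, 6.05, 4.19 and 13.1 FPKM in WT muscles. Insig1, which holds back sterol synthesis, rose (0.34 ± 0.11, adjusted p = 0.0196). Without RE-RE mouse 6 and WT mouse 8, 1 of the 15 fell, Scd1, and 0 rose. With single libraries left out, Hmgcs1 and Insig1 each lost the call in 4 of 8 fits (0.0632 to 0.112 and 0.0513 to 0.0717), Acacb without RE-RE mouse 8 (0.0685) and Scd1 without RE-RE mouse 7 or 8 (0.0591 and 0.0598). Among 14 myogenic genes 2 rose and 2 fell, together above the 19.3% of all tested genes called in both directions, with Mef2c, a factor of muscle differentiation, at 52.8 to 61.5 FPKM in RE-RE and 29.8 to 44.1 FPKM in WT muscles (0.61 ± 0.08, adjusted p = 1.04e-06). Of 14 PGC-1 and ERR regulators 2 fell, below the 19.3% of all tested genes called. Of 8 amino acid stress genes 2 fell, above that share, and of imprinted growth genes 0 of 9 changed. Satellite cell markers (0 of 5), erythroid markers (0 of 6) and adipocyte markers (1 of 9 fell, Plin1) gave no count above that share.

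Among the largest rises with no value at 0 (12 genes, by the rule for named genes), Map3k7cl had 16.9, 20.5, 15.8 and 21.9 FPKM in RE-RE muscles, against 1.07, 0.331, 2.19 and 3.36 FPKM in WT muscles (3.86 ± 0.40, adjusted p = 4.86e-09). Col5a3, a minor fibrillar collagen, had 9.39, 12.2, 11.4 and 9.57 FPKM in RE-RE muscles, against 1.49, 0.473, 1.41 and 1.4 FPKM in WT muscles (3.27 ± 0.23, adjusted p = 1.64e-13). Both lay far above WT in every library. Rbp7, a retinol-binding protein, rose by 3.25 ± 0.80, Tmem132a by 2.80 ± 0.25, Creb3l1, a factor of collagen-secreting cells, by 2.30 ± 0.28, and Hectd2os by 3.18 ± 0.87. Cpxm2 (2.22 ± 0.76) and Lrfn4 (2.19 ± 0.71) rose too. Hectd2os lost its call without WT mouse 8 (0.0548), Lrfn4 without WT mouse 6 (0.136) or RE-RE mouse 8 (0.0532), and Cpxm2 without WT mouse 5, 6 or 7 or RE-RE mouse 7 or 8 (0.0588 to 0.0842).

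Among the largest falls, Podn, a small proteoglycan of the matrix, had 0.307, 0.33, 0.663 and 0.212 FPKM in RE-RE muscles, against 3.58, 3.88, 3.72 and 3.37 FPKM in WT muscles (-3.35 ± 0.24, adjusted p = 1.64e-13). Inmt, a methyltransferase of small amines, had 0.883, 1.16, 0.949 and 0.562 FPKM in RE-RE muscles, against 8.88, 7.22, 7.92 and 8.01 FPKM in WT muscles (-3.20 ± 0.54, adjusted p = 4.73e-05). For both, every WT muscle stood at several times the highest RE-RE muscle. Cys1, a protein of primary cilia, fell by 2.37 ± 0.20, Cdo1, cysteine dioxygenase, by 3.03 ± 0.79, Tbx3, a transcription factor, by 1.40 ± 0.22, and Tmem200b by 1.57 ± 0.22. Mybph, a myosin-binding protein of muscle, had 52, 70.9, 77.6 and 37 FPKM in RE-RE muscles, against 122, 134, 156 and 200 FPKM in WT muscles (-1.40 ± 0.31, adjusted p = 0.00111). The neuropeptide gene Nmb (-1.39 ± 0.37) and Fgfbp1, a carrier of fibroblast growth factors (-1.32 ± 0.27), complete the 12 together with Fmo2, Lmod1 and Gstt1.

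In all, 33 called genes were listed at 0 in all WT muscles and in no RE-RE muscle, Npas2, Fos and Ankrd1 among them. For 5 called genes it was the other way round. Among the first, Otud1, a deubiquitinase, had 20.6, 33.5, 16.8 and 22.7 FPKM and Postn, periostin of the matrix, 15.7, 10.1, 11.7 and 13.1 FPKM in RE-RE muscles. Among the second, Alb had 1.36, 1.36, 1.44 and 2.55 FPKM and Capn11 1.06, 1.69, 1.06 and 1.86 FPKM in WT muscles. Folds are not given for these genes. Fst, an antagonist of myostatin, and Spon2 came close, with 1.67 to 1.98 FPKM (Fst) and 2.33 to 3.48 FPKM (Spon2) in RE-RE muscles, against 0, 0, 0 and 0.0294 FPKM (Fst) and 0, 0, 0 and 0.0541 FPKM (Spon2) in WT muscles.

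The same genotype contrast at ZT0, in other mice, called 2887 of the 12000 genes (24.1%). Of the 2318 genes called at ZT12, 1145 were called in the same direction at ZT0 (49.4% of the ZT12 calls and 39.7% of the ZT0 calls) and 5 in the opposite one. The difference between the 2 contrasts passed for 41 genes (0.342%), 19 with a more positive and 22 with a more negative change at ZT12, and 25 of the 41 were called at ZT12. Some of the 41 had no value at 0 in the 8 libraries at ZT12, no overlap there and a mean of at least 1 FPKM. Among these, Tspan4, Col5a3, Per2, Fbn1, Cys1 and Rhoj had the smallest adjusted p. Genes that overlapped at ZT12, such as Pik3r1 below, were outside this limit whatever their adjusted p. Col5a3 rose by 3.27 at ZT12 and by 1.04 at ZT0 (difference, adjusted p = 7.75e-05), and Cys1 fell by 2.37 at ZT12 and by 0.86 at ZT0 (0.00385). Rhoj, a GTPase of endothelial cells, had 2.64, 3.16, 2.84 and 2.89 FPKM in RE-RE muscles, against 1.79, 1.6, 1.89 and 1.95 FPKM in WT muscles at ZT12 (0.67 ± 0.10) and changed by -0.04 at ZT0 (difference, 0.00722).

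Output genes of the clock were among the 41 through their ZT0 values. Dbp stood at 9.97 to 13.1 FPKM in RE-RE sham muscle at ZT0, while 3 of 4 WT muscles at ZT0 were listed at 0 and the fourth had 11.9 FPKM (difference, adjusted p = 0.0113). Tef was higher in RE-RE muscle at ZT0 (0.38, adjusted p = 0.000498) and not at ZT12 (difference, 0.0399). Pik3r1, a subunit of PI3 kinase, had 4.82 to 8.3 FPKM in RE-RE and 2.74 to 7.58 FPKM in WT muscles at ZT12 with overlap, and differed at ZT0 (difference, 4.96e-09). Of the 19 members of the clock list, 7 were higher and 1 lower in RE-RE sham muscle at ZT0, against 2 and 2 at ZT12. Over all tested genes 12.5% were higher and 11.6% lower at ZT0. Naca, a chaperone of new proteins (63.4 to 71.6 FPKM in RE-RE and 86.3 to 89.5 FPKM in WT muscles, -0.37 ± 0.05), and Haus1, of the mitotic spindle (9.15 to 10.4 FPKM in RE-RE and 6.91 to 7.85 FPKM in WT muscles, 0.40 ± 0.05), changed at ZT12 and by -0.07 and 0.08 at ZT0 (difference, 0.0431 and 0.0292).

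In adrenalectomized mice at ZT12, which share no library with the sham groups, RE-RE against WT called 4561 genes (38.0%). Of the 2318 genes called in sham muscle, 1384 were called in the same direction (59.7% of the sham calls and 30.3% of the ADX calls) and 40 in the opposite one, and 856 were called in the same direction in all 3 contrasts. Among genes named above, and chosen after their values were seen, Npas2, Podn, Col5a3, Fbn1, Tspan4, Cdkn1a, Cryab and Igfbp3 were called in the same direction after adrenalectomy, and Inmt was called in the opposite one, with 0.598 to 0.959 FPKM in RE-RE ADX and 0 to 0.283 FPKM in WT ADX muscles, 2 of the 4 WT ADX muscles listed at 0 (adjusted p = 2.94e-07). The sham and ADX contrasts were not tested against each other here.

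Genes near the engineered loci were counted because flanking DNA of the strain in which a gene was altered can travel with it. Within 5 Mb of Arntl (chr7:113207465-113314126, GRCm38) 10 of 46 tested genes were higher and 3 lower (28.3%), and within 5 Mb of Syt10 (chr15:89782393-89841860) 5 of 55 were higher and 8 lower (23.6%), against 19.3% of all tested genes. Of these 13 and 13 called genes, 9 and 7 were called in the same direction at ZT0. The most significant were 2310014F06Rik near Arntl, with 1.26 to 2.13 FPKM in RE-RE muscles, against 0.1, 0, 0 and 0 FPKM in WT muscles, and Adamts20 near Syt10, a matrix protease, with 1.02 to 1.35 FPKM in RE-RE and 0.195 to 0.38 FPKM in WT muscles (2.01 ± 0.23, adjusted p = 6.55e-08). Where the transgenes themselves lie was not known here. Nnt, a gene deleted in part in the C57BL/6J substrain, had 27.1, 5.93, 16.6 and 6.17 FPKM in RE-RE muscles, against 13.5, 0, 0 and 4.97 FPKM in WT muscles (adjusted p = 0.00117). Its values overlap between the groups, and whether the 8 mice shared 1 substrain background was not tested.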

How the data were processed

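RNA of the tibialis anterior was sequenced as single-end 60 bp reads, on average 25 M per library, per the labels' protocols. Per the submitters' processing notes reads were handled with HISAT2 2.1.0 on GRCm38, featureCounts 1.6.2, edgeR 3.30.0, FastQC 0.11.8 and, for trimming, Trim Galore 0.5.0; strand and shared-read settings are not given in the sources used here. The authors deposited log2 values of FPKM + 0.01 for 13500 genes in 47 libraries, of which 13446 matched a symbol of the GENCODE annotation. Read counts could not be recovered from these values (in 1024 genes at 0 in 1 to 9 libraries, 8.67% to 11.27% of values were whole reads within 0.05 read, against 10.0% by chance), so no count test was run. Depth was read from 68 genes listed at 0 in 30 or more libraries.

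From the deposited values, limma 3.58.1 in R 4.3.3 was fitted to the means of the 12 groups, with a trend in the variance, on the 12000 genes that were at or above 1 FPKM in 3 or more libraries. Tests were two-sided with Benjamini-Hochberg adjustment over all tested genes. The label protocols do not say that each library of a group was an independent preparation, so p-values measure the spread between these libraries. The alternatives were another offset (1 FPKM), no filter, equal medians, the compared groups alone, a block for replicate number, mouse age as a covariate, genes listed at 0 left out, the libraries that stand apart left out, and each library left out. Leaving out the libraries that stand apart and fitting the compared groups alone together was added after seeing the data. Data were also simulated for this comparison (12000 genes, 200 changed, 50 at each size). Of changes of 0.3, 0.5, 1 and 2 (log2), 50%, 72%, 84% and 90% were recovered, and 13 unchanged genes were called. Whether these shares hold for the deposited values, with their values at 0 and shared exact low values, was not tested.

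The comparison and the gene lists were chosen with earlier results of these data known. Named genes were the core clock, the 12 largest rises and falls with no value at 0, without overlap and with a mean of at least 1 FPKM, up to 6 called and 2 uncalled members of each list, up to 6 genes called for the difference between times, genes near Arntl and Syt10, up to 4 genes at 0 in 1 whole group, and Nnt and Wdfy1. Fst, Spon2, Pik3r1, Gstt2, Fosb, Egr3, Atf3, Jund, Junb, Timp2, Mmp2, Lox, Tnmd, Eno3, Pfkm, Gapdh, Alb, Capn11, Naca, Haus1, Angptl7, Kera, Myh7, Myl2, Tpm3, Tnnc1, Tnni1, mt-Co2, Hmgcs1, Fdft1, Acacb, Scd1 and Insig1 were chosen after their values were seen. Some genes that the rule names are not reported here. Promoter sequences are from RefSeq, and windows of the members Egr1, Ier2 and Egr3 were not used here.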

Additional observations from a re-analysis of the deposited data

Results flagged for a closer look

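Among the 196 genes named, 392 groups of 4 libraries at ZT12 were searched for a library far from the other 3 (Dixon's 95% critical value for 4 values), and 33 were found. Chance gives about 1 in 20 groups, but that rate does not apply where values are listed at 0: in 9 of the 33 the other 3 values were all at 0, and in 4 more some were. WT mouse 8, one of the libraries that stand apart, was the highest of its group in 15 of them: Mmp14 (2.04 FPKM), Angptl4 (0.499), Mt2 (1.53), Ier5 (2.25), Btg2 (2.12), Jun (10.8), Egr1 (1.08), Junb (3.47), Igf1 (0.486), Col12a1 (1.26), Mmp9 (0.64), Fst (0.0294), Spon2 (0.0541), Alb (2.55) and Atp2a1 (15353 FPKM). WT mouse 6 was highest for Chrne (13.9 FPKM), Naca (89.5), Myl2 (3.15) and Fdft1 (35.4) and lowest for Col5a3 (0.473) and Gpx3 (listed at 0). WT mouse 7 was highest for Creb3l1 (0.673 FPKM) and lowest for Lmod1 (1.62), and WT mouse 5 was lowest for Tyrobp (0.126) and highest for 2310014F06Rik (0.1). Among RE-RE muscles, mouse 5 was highest for Arntl (0.327 FPKM) and Atf3 (5.46), mouse 7 for Cys1 (0.665) and Cryab (563), and mouse 8 was lowest for Ckm (11827) and highest for Myh7 (6.61), Tnnc1 (12) and Tnni1 (2.78).

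The genotype effect differed between ZT12 and ZT0 by the test of the difference itself in 19 named genes, with adjusted p from limma as given in the text. On the log2 scale the effect at ZT12 minus that at ZT0 was positive for Npas2 (5.57), Btg2 (7.36), Fst (5.14), Spon2 (5.23), Cdkn1a (2.57), Col5a3 (2.23), Fbn1 (1.64), Rhoj (0.71) and Haus1 (0.32). It was negative for Per2 (-2.59), Dbp (-7.31), Tef (-0.47), Tspan4 (-1.44), Cys1 (-1.51), Ephx1 (-0.69), Gstt2 (-1.02), Naca (-0.30), Pik3r1 (-7.76) and Gpx3 (-8.59, adjusted p = 0.0292). Values above 5 in size rest on groups with values listed at 0 and depend on the offset of 0.01 FPKM.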

How the results depend on the processing

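The 2318 calls at ZT12 became 1041 with the replicate number as a block, 1318 without RE-RE mouse 6 and WT mouse 8, and 606 when these 2 were left out and only the compared groups were fitted. The 2887 calls at ZT0 became 1313 with only the compared groups, 1060 with the block and 1334 without the libraries that stand apart; the 41 calls for the difference became 17 with the block and 25 without genes listed at 0; the 4561 calls after adrenalectomy became 1815 with the block. The cause was not tested. Leaving out 1 library gave 1876 to 2083 calls at ZT12, 2122 to 2839 at ZT0, 3718 to 4372 after adrenalectomy and 25 to 159 for the difference (159 without RE-RE ZT0 mouse 3, 135 without RE-RE ZT12 mouse 7, 25 without RE-RE ZT12 mouse 8). The same replicate numbers did not mark pairs: their deviations correlated at 0.01, -0.12, -0.03 and 0.04 at ZT12. Of the 143 named genes called, 0 reversed under any alternative run, 117 kept the call with any 1 library left out, 125 with only the 2 groups, 139 with age as a covariate, 139 on log2(FPKM + 1), 93 with the block, 118 without the libraries that stand apart and 81 with these left out and only the 2 groups fitted. Equal medians moved the split at ZT12 to 1176 higher and 1067 lower. With counts not recovered, the precision of low values at 18.5 to 27.4 M reads could not be given, and values listed at 0 limit every fold that uses them.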
